A study of Homo sapiens with 3 samples.

Results

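The RNA levels of 10 antioxidant genes, the superoxide dismutases SOD1 and SOD2, the catalase CAT, the peroxiredoxins PRDX1, PRDX2, PRDX3, PRDX5 and PRDX6, thioredoxin TXN and thioredoxin reductase TXNRD1, were described in 3 libraries of a human bile duct cancer line. The genes were taken by symbol from the gene tables, 1 gene ID each, out of 58892 gene IDs. Poly-A RNA came from KKU-213L5 cells in medium with 25 mM glucose (L5), from KKU-213 cells in 25 mM glucose (HG), and from KKU-213 cells in 5.6 mM glucose (NG). KKU-213 is an established line from an intrahepatic cholangiocarcinoma, and KKU-213L5 is known as its metastatic subline. All cultures were in serum-supplemented DMEM and had been passaged over 5 times, per the labels. HG against NG is the glucose comparison that the design names, L5 against HG compares the subline with its parent at equal glucose, and L5 differs from NG in both line and glucose, whose parts cannot be told apart.

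Superoxide dismutases turn superoxide into hydrogen peroxide, SOD1 with copper and zinc mainly in the cytosol and SOD2 with manganese in the mitochondrial matrix. Hydrogen peroxide is then removed by catalase, mostly in peroxisomes, and by peroxiredoxins, which are oxidised in the process and are, for the most part, reduced again by thioredoxin. Thioredoxin reductase, a selenoprotein, recharges thioredoxin with electrons from NADPH, and many of these genes are known targets of the stress-responsive transcription factor NRF2, while SOD2 is a known target of NF-kB.

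The libraries held 68.7 M fragments in L5, 76.0 M in HG and 47.1 M in NG, as worked out from the coverage columns. The members were well covered, with 2605 to 55660 fragments per gene in L5, 2573 to 44555 in HG and 1685 to 35111 in NG. Each group had 1 library, so no difference has a replicate check and no test across samples exists. The error after ± is a counting standard error of the log2 ratio, taken from the deposited FPKM intervals, which covers counting and not the spread between cultures. FPKM counts fragments per length of transcript and per size of library, and a log2 ratio is that of FPKM + 1. Of 14 cholangiocyte markers, 10 in L5, 10 in HG and 9 in NG reached 1 FPKM, led by the keratin KRT7 at 789, 784 and 992 FPKM. Of 12 hepatocyte markers, 1, 1 and 2 did, with SERPINA1 at 36.5, 27.8 and 77.8 FPKM and ALB listed at 0, 0 and 0.0729 FPKM. Among 9 fibroblast markers ACTA2 alone did, at 2.1, 2.82 and 7.76 FPKM, and of 11 leukocyte and endothelial markers 2, 2 and 1 did, led by CD68 at 16.1, 13.2 and 12.5 FPKM. These are bulk libraries, in which fewer cells with an RNA and less of it per cell cannot be told apart.

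The sequences upstream of SOD2, TXN and TXNRD1 are shown because SOD2 and TXNRD1 differed most between the libraries and TXN had the highest level. Each run is the 250 bases before a RefSeq start site on GRCh38.p14, written toward the gene, while all expression values and loci are on GRCh37. Capitals mark GC boxes (GGGCGG) and the antioxidant response element core (TGACNNNGC), the sequence that NRF2 is known to bind, on either strand. SOD2 is at chr6:159693242-159693491, minus strand, TXN at chr9:110256508-110256757, minus strand, TXNRD1 downstream start at chr12:104286782-104287031, plus strand, and TXNRD1 upstream start at chr12:104215529-104215778, plus strand.
SOD2: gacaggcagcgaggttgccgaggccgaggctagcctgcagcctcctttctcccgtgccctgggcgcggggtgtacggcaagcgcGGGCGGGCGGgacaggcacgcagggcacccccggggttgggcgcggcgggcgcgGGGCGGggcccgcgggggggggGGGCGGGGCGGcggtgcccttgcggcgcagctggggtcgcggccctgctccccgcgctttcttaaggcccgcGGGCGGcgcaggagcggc
TXN: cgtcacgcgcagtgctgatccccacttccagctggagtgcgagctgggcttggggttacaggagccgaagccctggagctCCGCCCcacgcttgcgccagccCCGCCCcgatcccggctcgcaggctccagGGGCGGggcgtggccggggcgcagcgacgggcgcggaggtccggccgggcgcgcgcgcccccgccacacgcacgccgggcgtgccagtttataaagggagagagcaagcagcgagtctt
TXNRD1 downstream start: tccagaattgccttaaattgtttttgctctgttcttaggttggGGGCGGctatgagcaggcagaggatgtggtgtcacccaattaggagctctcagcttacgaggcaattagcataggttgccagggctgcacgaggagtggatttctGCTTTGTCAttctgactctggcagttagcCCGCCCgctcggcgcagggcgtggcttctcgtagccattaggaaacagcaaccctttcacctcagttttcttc
TXNRD1 upstream start: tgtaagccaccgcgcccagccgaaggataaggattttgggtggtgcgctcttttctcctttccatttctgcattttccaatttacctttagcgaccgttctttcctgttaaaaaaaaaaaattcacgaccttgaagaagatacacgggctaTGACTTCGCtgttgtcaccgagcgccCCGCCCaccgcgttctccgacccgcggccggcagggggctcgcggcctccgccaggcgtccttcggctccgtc

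The SOD2 window held 6 GC boxes, some sharing bases, and no match to the antioxidant response element core, to the kappa B consensus or to the AP-1 site (TGANTCA, which shares its first letters with the core). The TXN window held 3 GC boxes. The downstream TXNRD1 window held a core on the reverse strand, GCTTTGTCA, whose first base lies 102 bases before the start, and the upstream window held TGACTTCGC, whose first base lies 99 bases before its start. RefSeq gave 12 windows for 7 of the members (SOD2, CAT, PRDX2, PRDX3, PRDX5, TXN and TXNRD1). Of the 12 windows 2 held a core, both of TXNRD1, against 10.9% of 35116 promoter windows of equal length. All 12 held a GC box, against 42.6% of windows, and none held a kappa B or AP-1 match, against 9.96% and 6.57%. SOD2, PRDX5 and TXNRD1 had more than 1 window each, so the 12 are not independent. A match describes letters and is not evidence of binding.

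Listed transcripts were tied to a window where their start lay within 500 bases of the window's start site and was annotated at the same place in both builds, within 50 bases. The 7 transcripts at the SOD2 window summed to 34.5 FPKM in L5, 74.8 in HG and 40.3 in NG, nearly all of the gene. The 12 transcripts at the downstream TXNRD1 window summed to 73.7, 40.9 and 40.3 FPKM, against at most 0.285 FPKM at the upstream window. The leading TXNRD1 transcript, ENST00000397736, is tied to no window, because its annotated start differs between the builds. On GRCh37 it is listed from position 104684787, downstream of ENST00000503506 at 104680460.

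Across the 10 genes, TXN and PRDX1 made up most of the RNA, SOD2 stood highest in HG, and on the deposited scale TXN and TXNRD1 stood highest in L5. TXN was listed at 934 FPKM in L5, 638 in HG and 809 in NG, and PRDX1 at 525, 575 and 731 FPKM. Together they made up 58.3%, 55.4% and 57.9% of the summed FPKM of the 10 genes, a sum of 2502, 2188 and 2660 FPKM. CAT was the lowest member in every library and SOD2 the next lowest. In L5 the order from the highest was TXN, PRDX1, PRDX6, TXNRD1, PRDX3, PRDX5, SOD1, PRDX2, SOD2 and CAT, and the intervals of PRDX5 and SOD1 overlapped. In HG PRDX3 stood above PRDX6, and the intervals of SOD1 and PRDX5 and those of TXNRD1 and PRDX2 overlapped. In NG the overlapping neighbours were SOD1 with PRDX3 and PRDX2 with TXNRD1. The deposited interval held the listed FPKM in all 30 cases but PRDX1 in HG and TXN in L5.

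**Figure D1:**
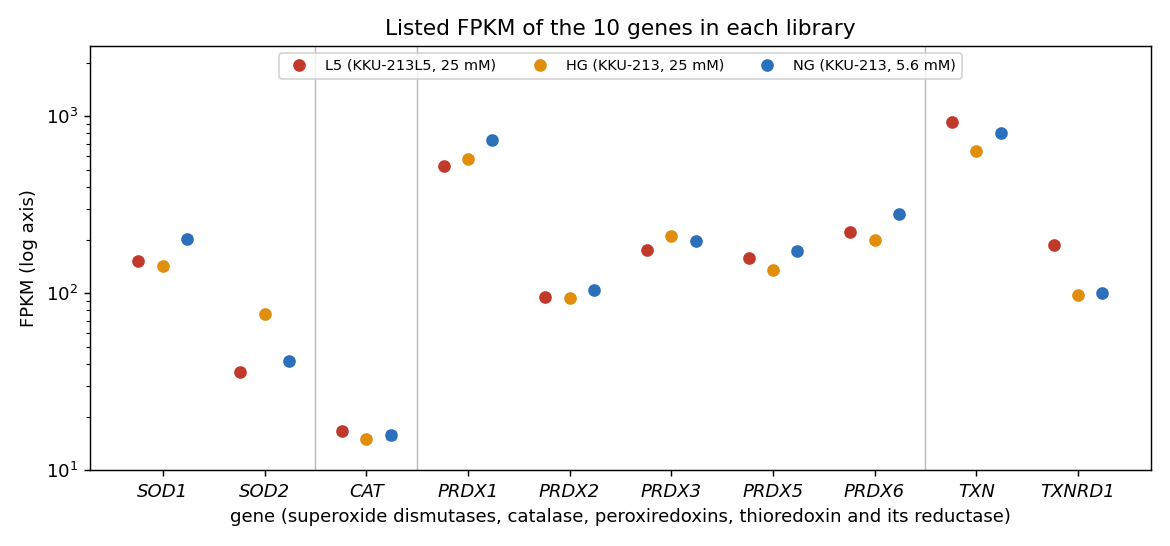
FPKM (log axis) of each member in L5, HG and NG, 1 point per library, ordered by role. SOD2 (35.9 FPKM in L5, 76.1 in HG and 41.3 in NG) is highest in HG, and TXNRD1 (188, 98.0 and 99.9 FPKM) in L5, while the 3 points of CAT lie between 15.1 and 16.6 FPKM.

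SOD1 (ENSG00000142168, chr21:33031935-33041244), the cytosolic enzyme, was listed at 152 FPKM in L5, 143 in HG and 204 in NG. Both libraries at 25 mM glucose were below NG. Their log2 ratios over NG were -0.43 ± 0.04 for L5 and -0.51 ± 0.04 for HG. L5 over HG stood at 0.08 ± 0.04 with overlapping intervals, and this sign turned under spike-in scaling. SOD1's copper chaperone CCS was listed at 8.38, 6.48 and 9.54 FPKM, with a log2 ratio of -0.17 ± 0.10 for L5 over NG, within counting error, and -0.49 ± 0.10 for HG over NG.

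SOD2 (ENSG00000112096, chr6:160100096-160183561), the mitochondrial enzyme, was listed at 35.9 FPKM in L5, 76.1 in HG and 41.3 in NG. As deposited, HG alone was high, and L5 lay near NG. L5 over HG stood at -1.06 ± 0.04, the 1 member ratio to pass the size rule of at least 1 in size, or 2-fold. The ratio was 0.87 ± 0.04 for HG over NG and -0.20 ± 0.05 for L5 over NG. Spike-in scaling kept HG highest and set L5 farther below NG. It gave -1.46 for L5 over HG, 0.41 for HG over NG and -1.09 for L5 over NG, the last then past the size rule. That scaling moved all genes together, to medians of -0.36, -0.49 and -0.87 in the same order. For L5 over NG 4555 of 13152 genes then passed the rule, and SOD2 lay at -0.23 from the median. SOD2 RNA per SOD1 RNA was 0.236 in L5, 0.53 in HG and 0.202 in NG, a ratio that no scaling of a whole library alters.

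Of all 13129 genes measured in L5 or HG, 2.23% passed the size rule, 1.72% with more RNA in L5 and 0.51% with less. SOD2 was the 1 of 10 members to do so, with less in L5. Between HG and NG 4.19% of 13383 genes passed, 1.32% higher and 2.88% lower, and 0 of 10 members. Between L5 and NG 3.92% of 13474 genes passed, 1.89% higher and 2.03% lower, and again 0 of 10 members. The comparisons share libraries, so their counts are not independent.

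A weaker rule asks only that the deposited intervals do not overlap, which reflects counting depth. Between L5 and HG 8 members met it, 5 higher and 3 lower, against 54.0% of genes at 10 FPKM or more in both libraries. Between L5 and NG 9 did, 2 higher and 7 lower, against 58.2%. Between HG and NG 8 did, 2 higher and 6 lower, against 59.5%. The median log2 ratio of the members was 0.11 for L5 over HG beside -0.01 for all genes, -0.15 for L5 over NG beside -0.10, and -0.25 for HG over NG beside -0.09. Scaling to the spike-in RNA moved all genes together, to medians of -0.36 for L5 over HG, -0.87 for L5 over NG and -0.49 for HG over NG, and those of the members to -0.30, -1.07 and -0.71, so directions below are relative to the deposited scale.

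**Figure D2:**
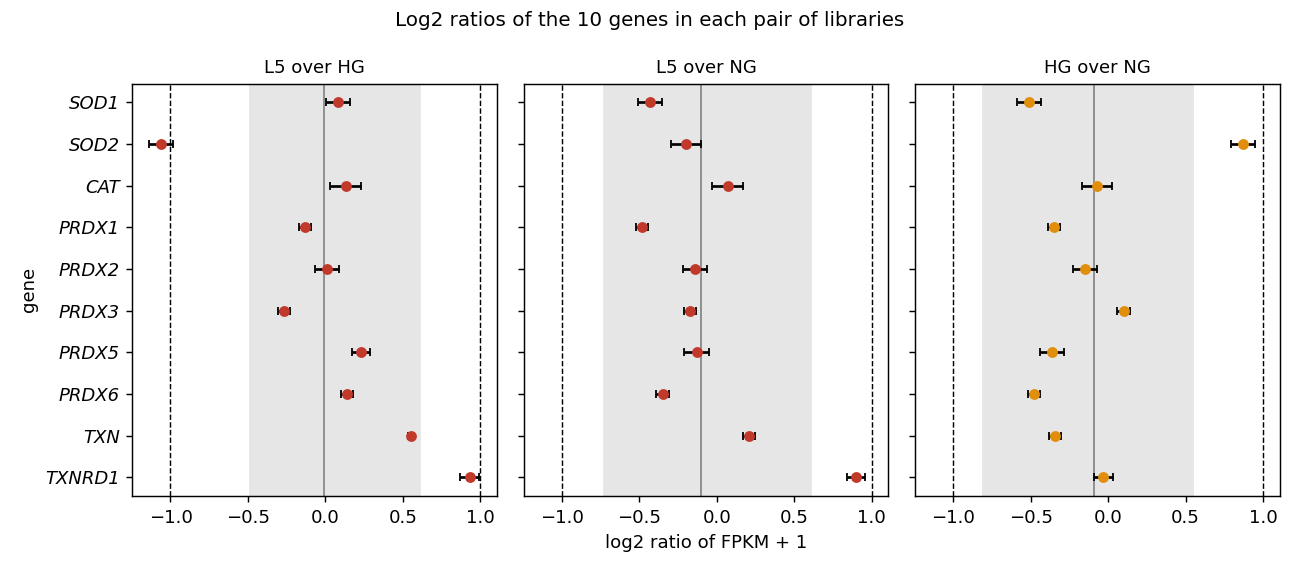
Log2 ratio of FPKM + 1 for each member in each pair of libraries, with bars that span the 95% counting interval. The grey band spans the 5th to 95th percentile of all genes, the grey line is their median and dashed lines are the size rule. SOD2 lies past the dashed line in L5 over HG (-1.06), and TXNRD1 is at 0.93 and 0.90 in the panels of L5.

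CAT (ENSG00000121691, chr11:34460472-34493609), which breaks down hydrogen peroxide in peroxisomes, was listed at 16.6 FPKM in L5, 15.1 in HG and 15.8 in NG. The 3 libraries lay close together. Log2 ratios were 0.13 ± 0.05 for L5 over HG, 0.07 ± 0.05 for L5 over NG and -0.07 ± 0.05 for HG over NG. Signs turned with the scaling: for L5 over HG and L5 over NG under spike-in scaling, and for HG over NG under median, upper quartile and TPM scaling. Of 17 measured genes for peroxisome assembly and import, 0 passed the size rule in any comparison of the deposited values. The import receptor PEX7 was listed at 3.88, 5.25 and 2.98 FPKM, and PEX19, which carries membrane proteins, at 23.6, 21.4 and 31.1 FPKM.

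The cytosolic peroxiredoxins PRDX1 and PRDX2 are the usual partners of TXN. PRDX1 (ENSG00000117450, chr1:45976708-45988719) was listed at 525 FPKM in L5, 575 in HG and 731 in NG, highest in NG and lowest in L5. The log2 ratio was -0.13 ± 0.02 for L5 over HG, -0.48 ± 0.02 for L5 over NG and -0.35 ± 0.02 for HG over NG. The direction was the same under all 10 alternatives tried. PRDX2 (ENSG00000167815, chr19:12907634-12912694) was listed at 94.8, 93.9 and 104 FPKM. L5 and HG did not differ beyond their intervals (0.01 ± 0.04), a sign that turned under upper quartile and spike-in scaling. L5 over NG stood at -0.14 ± 0.04, above 0 under TPM scaling, and HG over NG at -0.15 ± 0.04.

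PRDX3 (ENSG00000165672, chr10:120927215-120938345), the peroxiredoxin of the mitochondrial matrix, was listed at 176 FPKM in L5, 212 in HG and 198 in NG. Like SOD2, it was highest in HG and lowest in L5, with smaller differences. The log2 ratio was -0.27 ± 0.02 for L5 over HG, -0.17 ± 0.02 for L5 over NG and 0.10 ± 0.02 for HG over NG, the last below 0 under spike-in scaling. SOD2 per PRDX3 was 0.204 in L5, 0.359 in HG and 0.209 in NG, so HG again stood alone in SOD2. TXN2, the mitochondrial thioredoxin, was listed at 32.4, 35.2 and 31.6 FPKM, and its reductase TXNRD2 at 9.67, 10.4 and 13.3 FPKM.

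PRDX5 (ENSG00000126432, chr11:64085560-64089283), found in mitochondria, peroxisomes and cytosol, was listed at 159 FPKM in L5, 135 in HG and 174 in NG, lowest in HG. The log2 ratio was 0.23 ± 0.03 for L5 over HG, below 0 under spike-in scaling. It was -0.13 ± 0.04 for L5 over NG, above 0 under TPM scaling, and -0.36 ± 0.04 for HG over NG. PRDX6 (ENSG00000117592, chr1:173446405-173457946), which is reduced by glutathione rather than thioredoxin, was listed at 221, 201 and 282 FPKM. Both libraries at 25 mM glucose were below NG, at -0.35 ± 0.02 for L5 and -0.48 ± 0.02 for HG. L5 over HG stood at 0.14 ± 0.02, below 0 under spike-in scaling. The 5 peroxiredoxins summed to 1176 FPKM in L5, 1217 in HG and 1489.6 in NG, and PRDX1 supplied 44.7%, 47.3% and 49.1% of that.

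TXN (ENSG00000136810, chr9:113006091-113018920), the electron donor of peroxiredoxins and ribonucleotide reductase, was listed at 934 FPKM in L5, 638 in HG and 809 in NG. L5 was highest and HG lowest. Its log2 ratio was 0.55 ± 0.01 for L5 over HG, 0.21 ± 0.02 for L5 over NG, below 0 under spike-in scaling, and -0.34 ± 0.02 for HG over NG. Spike-in scaling set L5 over HG at 0.14, beside a median of -0.36 for all genes. TXN per PRDX1 was 1.78 in L5, 1.11 in HG and 1.11 in NG. The share of TXN in the summed FPKM of the 10 genes was 37.3%, 29.1% and 30.4%.

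TXNRD1 (ENSG00000198431, chr12:104609557-104744061), which recharges TXN, was listed at 188 FPKM in L5, 98.0 in HG and 99.9 in NG. L5 stood apart, and HG and NG had overlapping intervals. The log2 ratio was 0.93 ± 0.03 for L5 over HG and 0.90 ± 0.03 for L5 over NG, both just short of the size rule. L5 over NG reached 1.01 under median scaling and 1.06 under TPM scaling, which passes it, and -0.02 under spike-in scaling. Spike-in scaling set L5 over HG at 0.52, beside a median of -0.36 for all genes. HG over NG stood at -0.03 ± 0.03, above 0 under median, upper quartile and TPM scaling. TXNRD1 per TXN, which library scaling leaves as it is, was 0.201 in L5, 0.154 in HG and 0.123 in NG.

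The tables listed 77 isoforms of the members, of which 14 reached 10% of their gene in at least 1 library. In SOD1, CAT, PRDX1, PRDX2, PRDX3, PRDX5 and TXN a leading isoform held 89.3% or more in every library. PRDX6 had a pair of isoforms, the coding ENST00000340385 at 69.5%, 67.2% and 68.8% in L5, HG and NG, and ENST00000470017, a processed transcript, at 28.7%, 30.8% and 29.6%.

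SOD2 RNA was mostly ENST00000538183, a transcript of 4259 nt, at 28.7 FPKM in L5, 53.9 in HG and 31.2 in NG. The short ENST00000367055, of 990 nt, was listed at 2.42, 12.8 and 5.56 FPKM. Its share of the gene was 6.74% in L5, 16.8% in HG and 13.5% in NG, so the short form was least represented in L5 and most in HG. Summed over the 12 isoforms under 2000 nt, SOD2 stood at 6.98, 21.9 and 9.86 FPKM, with a log2 ratio of -1.52 for L5 over HG, against -0.88 for the 4 longer isoforms. Both length classes were lower in L5 than in HG and higher in HG (1.08 and 0.77) than in NG. Isoform values are estimates that divide shared reads, and how well they separate forms of overlapping sequence was not tested.

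TXNRD1 was spread over 26 listed isoforms, of which 3 reached 10%. ENST00000397736 was listed at 87.3 FPKM in L5, 39.9 in HG and 39.1 in NG, ENST00000526691 at 32, 13.4 and 15.2 FPKM, and ENST00000503506 at 24.6, 17.6 and 16.3 FPKM. All 3 were higher in L5 than in HG, with log2 ratios of 1.11, 1.19 and 0.46. An isoform singled out after its values were seen, ENST00000388854, went the other way, at 1.68 FPKM in L5, 8.5 in HG and 7.06 in NG, and its status is low data in each library.

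**Figure D3:**
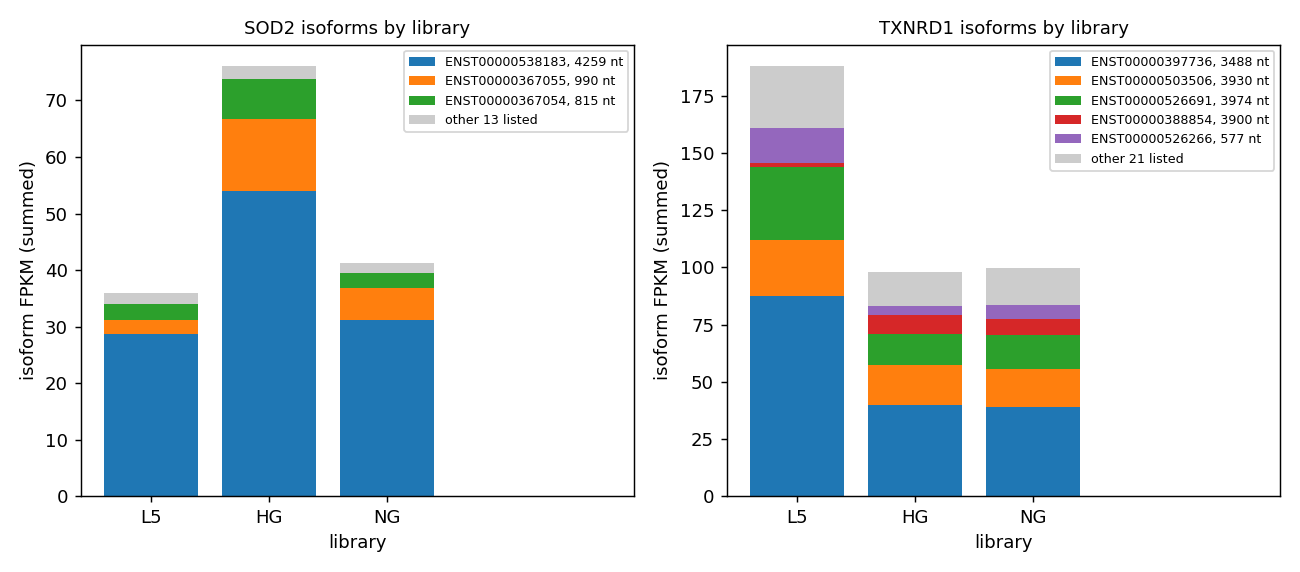
Stacked isoform FPKM of SOD2 (left) and TXNRD1 (right) in L5, HG and NG, 1 bar per library, with the length of each isoform in the legend. The blue leading isoforms carry most of the difference, 28.7 FPKM in L5 against 53.9 in HG for SOD2, and 87.3 FPKM in L5 against 39.9 in HG for TXNRD1.

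Some members share their locus with other genes. The SOD2 locus overlaps ACAT2, a thiolase of cholesterol synthesis listed at 36.6 FPKM in L5, 67.9 in HG and 37.5 in NG, and WTAP, a subunit of the RNA methyltransferase complex, at 43.3, 49.1 and 43.9 FPKM. ACAT2 was high in HG alone, as SOD2 was, and WTAP varied little. The 5 SOD2 isoforms that span over 20 kb, and so reach toward these genes, summed to at most 0.221 FPKM in any library. The TXNRD1 locus holds the pseudogene RPL18AP3 at 113, 129 and 137 FPKM, which was lowest in L5, where TXNRD1 was highest. Pseudogene IDs named for PRDX2 and PRDX3 were listed at 0.185 FPKM or less. The libraries are strand-specific per the labels, and whether the counting used strand is not given in the sources used here.

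The genes around SOD2 shared its direction at a smaller size. For L5 over HG, 7 of 9 measured genes within 1 Mb were below 0, with a median of -0.21, and on the whole of chromosome 6 it was 512 of 622, with a median of -0.31, beside -0.01 for all genes. For HG over NG 6 of 8 were above 0, with a median of 0.20, and 467 of 621 on the chromosome, with a median of 0.24, beside -0.09 (under spike-in scaling -0.15, beside -0.49). SOD2 itself, at -1.06 and 0.87, lay farther from 0 than these medians, and the part of the chromosome-wide shift in its values was not tested. TCP1, a chaperonin subunit next to it, was listed at 261, 376 and 263 FPKM.

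TXN also lay among genes that were higher in L5 than in HG. All 5 measured genes within 1 Mb were above 0, with a median of 0.66, as were 42 of 47 within 5 Mb, with a median of 0.39, and 415 of 514 on chromosome 9, with a median of 0.23 (under spike-in scaling -0.12, beside -0.36 for all genes). TXN, at 0.55, was inside the range of its neighbours. TXNRD1 lay away from the medians around it. Within 1 Mb of it 6 of 15 genes were above 0, with a median of -0.19. Chromosome 12 had a median of 0.03, while TXNRD1 stood at 0.93.

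**Figure D4:**
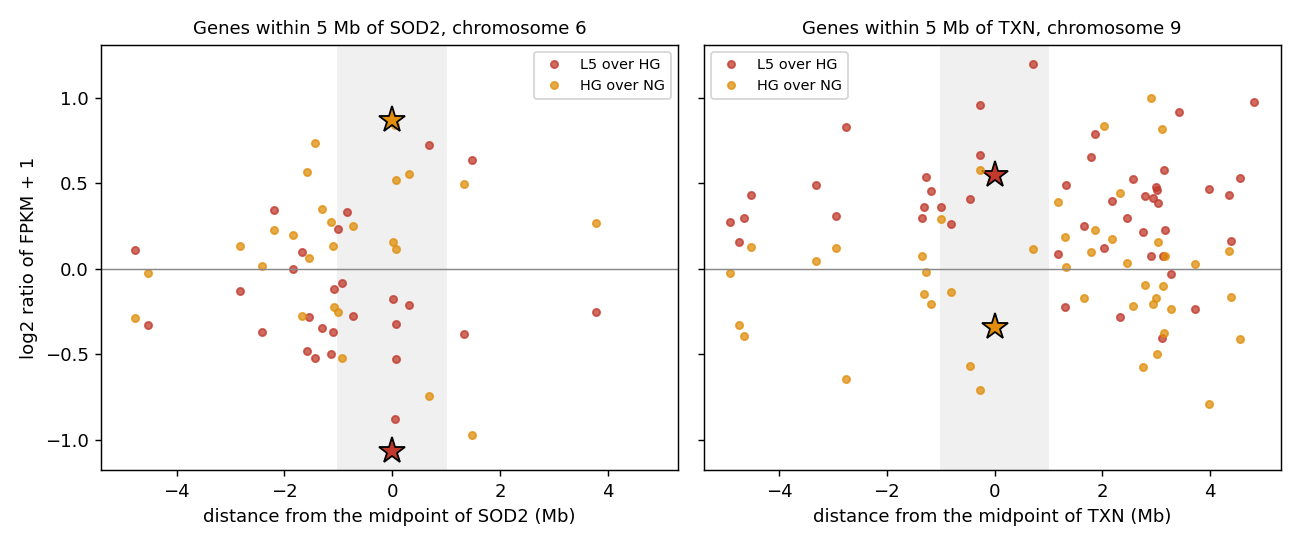
Log2 ratio of each measured gene against its distance in Mb from SOD2 (left, chromosome 6) and TXN (right, chromosome 9), for L5 over HG (red) and HG over NG (orange). Stars mark SOD2 and TXN and the band spans 1 Mb on each side. SOD2 is at the edge of the points around it (-1.06 and 0.87), whereas TXN (0.55 in L5 over HG) lies among its neighbours.

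Among 6924 genes, the 5 whose pair of log2 ratios (HG over NG and L5 over HG) lay nearest to that of SOD2 were DAG1, NRAS, ACAT2, HIPK1 and DDIT4. They were found by distance over 3 libraries, so their likeness is a description. DAG1, which encodes dystroglycan, was listed at 23.6 FPKM in L5, 51.3 in HG and 26.8 in NG, and DDIT4, an inhibitor of mTOR induced by stress and hypoxia, at 46.7, 107 and 49.3 FPKM. ACAT2 is the 1 of the 5 on chromosome 6. NRAS and HIPK1 are both on chromosome 1, DAG1 is on chromosome 3 and DDIT4 on chromosome 10.

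Of 14 measured partners and relatives of thioredoxin and the peroxiredoxins, NXN (nucleoredoxin) was the 1 past the size rule as deposited, at 17.8 FPKM in L5, 16.6 in HG and 4.9 in NG. It was higher in both libraries at 25 mM glucose, with log2 ratios of 1.67 ± 0.07 for L5 over NG, short of the size rule under spike-in scaling, and 1.58 ± 0.07 for HG over NG. TXNDC12, a thioredoxin-like protein of the endoplasmic reticulum, and SESN3, a sestrin, lay just short of the rule. TXNDC12 was listed at 42.9 FPKM in L5, 39.8 in HG and 21.0 in NG (0.99 ± 0.05 for L5 over NG and 0.89 ± 0.05 for HG over NG), and SESN3 at 3.29, 4.96 and 2.0 FPKM (0.99 ± 0.06 for HG over NG). Under median, upper quartile and TPM scaling TXNDC12 passed for L5 over NG and SESN3 for HG over NG, and under TPM scaling TXNDC12 passed for HG over NG too. TXNIP, the glucose-responsive inhibitor of TXN, was listed at 16.0, 11.3 and 11.3 FPKM, higher in L5 than in HG (0.46 ± 0.05), and SESN1, another sestrin, at 3.81, 5.78 and 4.9 FPKM. PRDX4, the peroxiredoxin of the endoplasmic reticulum, stood at 143, 160.2 and 189 FPKM, and SRXN1, which repairs overoxidised peroxiredoxins, at 15.6, 13.8 and 15.2 FPKM.

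In the glutathione branch, which removes peroxides in parallel, 1 of 10 measured genes passed for L5 over HG and 0 for L5 over NG and HG over NG. GPX2, the epithelial glutathione peroxidase, was listed at 79.7 FPKM in L5, 38.1 in HG and 61.5 in NG (1.05 ± 0.05 for L5 over HG, short of the rule under spike-in scaling). GPX1 went another way, at 78.9, 113 and 131 FPKM, lowest in L5. Of 15 measured genes that supply NADPH, 0 passed in any comparison of the deposited values, and ME1 and ME2, both malic enzymes, were highest in HG at 22.1, 32.3 and 22.9 FPKM and 26.3, 38.0 and 26.2 FPKM in L5, HG and NG.

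Among sources of superoxide and hydrogen peroxide, the monoamine oxidases MAOA and MAOB were higher in L5 than in HG, though short of the size rule under spike-in scaling. MAOA was listed at 29.2 FPKM in L5, 13.2 in HG and 8.59 in NG (1.09 ± 0.04 for L5 over HG and 1.65 ± 0.06 for L5 over NG), and MAOB at 8.35, 3.46 and 4.96 FPKM (1.07 ± 0.07 for L5 over HG). Between HG and NG DUOX1, a dual oxidase, was the 1 of 10 measured genes to pass, higher in HG, and it was named outside the rule because the count is small. Under spike-in scaling DUOX1 fell short, and CYBA and XDH, xanthine dehydrogenase, were lower. CYBA, an NADPH oxidase subunit, was listed at 62.7, 41.8 and 73.3 FPKM, lowest in HG.

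Among regulators and classic targets of NRF2 other than the members, 13 of 16 measured genes were above 0 for L5 over HG, beside 49.1% of all genes, with a median of 0.33 beside -0.01. Under spike-in scaling 6 of 16 were above 0, with a median of -0.06 beside -0.36 for all genes. SLC7A11, the cystine importer, and CBR1, a carbonyl reductase, passed the size rule, CBR1 alone under spike-in scaling. SLC7A11 was listed at 26.2 FPKM in L5, 10.0 in HG and 11.5 in NG, and CBR1, below the level the naming rule asks for, at 4.15, 0.785 and 0.122 FPKM. For HG over NG 4 of 15 were above 0, beside 38.5% of all genes, with a median of -0.25 beside -0.09 and 0 past the size rule. NQO1, a quinone reductase, was lowest in HG, as TXN was, at 327, 205 and 352 FPKM.

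Among 21 measured genes of the NF-kB pathway, 5 were higher and 0 lower for L5 over HG, or 2 (IL8 and CXCL3) and 1 (ICAM1) under spike-in scaling. The 5 were IL8 at 82.4 FPKM in L5, 25.9 in HG and 41.5 in NG, CXCL3 at 7.58, 1.9 and 5.05, CCL20 at 19.8, 7.37 and 21.8, TNFAIP3 at 25.2, 11.6 and 6.12, and CXCL2 at 26.9, 12.6 and 23.9. Past the size rule, 1.72% of all genes were higher and 0.51% lower, or 91 and 222 of 12876 under spike-in scaling. For HG over NG CCL20, CXCL1 and CXCL3 were lower and TRAF1 was higher, and under spike-in scaling 5 were lower and 0 higher. Of all genes 2.88% were lower and 1.32% higher, or 1077 and 73 of 13198 under spike-in scaling. For L5 over NG TNFAIP3 and TRAF1 were higher and CXCL1 lower, and under spike-in scaling 7 were lower and 0 higher. Of all genes 2.03% were lower and 1.89% higher, or 4490 and 65 of 13152 under spike-in scaling. The 7 lower of 21 thus lay near the share of all genes under that scaling. ICAM1 and BCL3 had, like SOD2, their highest FPKM in HG and lowest in L5, with smaller differences from HG. For BCL3, L5 over NG was within counting error (-0.17 ± 0.17). ICAM1, an adhesion molecule, was listed at 5.55 FPKM in L5, 9.87 in HG and 7.52 in NG, and BCL3, an atypical inhibitor of NF-kB, at 1.78, 2.8 and 2.12 FPKM. REL, a subunit, was highest in HG at 4.66, 5.04 and 3.88 FPKM, though L5 over HG was within counting error (-0.10 ± 0.07). As deposited, the chemokines CXCL1, CXCL2, CXCL3, CCL20 and IL8 were lowest in HG.

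Of 10 measured thioredoxin clients, MSRB3, a methionine sulfoxide reductase, was lower in HG than in NG, at 6.13 FPKM in L5, 4.54 in HG and 10.2 in NG (-1.02 ± 0.06 for HG over NG, short of the rule under median, upper quartile and TPM scaling). The ribonucleotide reductase subunits RRM1 and RRM2 lay at 148, 156 and 154 FPKM and 163, 173 and 161 FPKM. Of 19 measured selenoproteins and genes of their synthesis other than TXNRD1, GPX2 was higher in L5 than in HG and SELK, of the endoplasmic reticulum, was lower in L5 than in NG, at 41.1, 55.4 and 92.9 FPKM. For L5 over NG 5 of 19 were above 0, beside 38.1% of all genes, with a median of -0.29 beside -0.10 (under spike-in scaling -1.13 beside -0.87), while the selenoprotein TXNRD1 stood at 0.90 (-0.02). Of 12 measured mitochondrial companions and regulators of SOD2, 0 passed in any comparison of the deposited values. FOXO3, a transcription factor known to act on SOD2, was listed at 10.2 FPKM in L5, 13.4 in HG and 7.61 in NG, highest in HG. A link between FOXO3 RNA and SOD2 RNA was not tested. FOXO1, of the same family, went the other way and was lowest in HG, at 9.64, 6.31 and 8.96 FPKM (0.54 ± 0.14 for L5 over HG and -0.45 ± 0.15 for HG over NG), and the mitochondrial chaperonin HSPE1 was at 457, 463 and 714 FPKM. POLG, the polymerase of mitochondrial DNA, was listed at 7.46 FPKM in L5, 5.79 in HG and 9.78 in NG (-0.67 ± 0.27 for HG over NG).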

How the data were processed

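FPKM and coverage values were used as deposited. The authors made them with BWA, TopHat and Cufflinks on GRCh37, per the submitters' processing notes, with no versions given. Coverage is the read depth per transcript, per the file headers, and coverage times length over 200 gave fragments. FPKM is already scaled to library size and length.

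The members and gene lists were chosen with earlier results of these data known. For each pair of libraries, genes with status OK, at least 1 FPKM in 1 library and a longest isoform of at least 300 nt were kept, without spike-ins. Gene IDs listed at several loci were summed. Log2 ratios used a pseudocount of 1, which understates differences of low genes. The size rule is 1 in size. Deposited intervals were read as 95%. Named genes were the members, per list up to 4 past the size rule at 5 FPKM or more, or else the 2 largest, isoforms at 10%, and the 5 nearest patterns. Some results on the lists are not reported here. Other pathway genes given beside a member were chosen after their values were seen. The size rule was tested on simulated fragments with known fold changes, drawn with counting error and no spread between cultures. That simulation covered no scaling, isoform share, gene list or promoter. Promoters are from RefSeq. Python 3.11.15, pandas 2.3.3, numpy 2.4.6 and matplotlib 3.10.9 were used.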

Additional observations from a re-analysis of the deposited data

How the results depend on the processing

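Genes past the size rule numbered 569 (L5 over HG), 1024 (L5 over NG) and 1101 (HG over NG) with a pseudocount of 0.1, and 75, 152 and 150 with 5. With at least 5 FPKM they numbered 170, 289 and 316, and under spike-in scaling 4555 of 13152 (L5 over NG) and 1150 of 13198 (HG over NG).

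The share of these genes that was higher was 77.1%, 48.1% and 31.4% as deposited and 29.1%, 1.43% and 6.35% under spike-in scaling, while TPM scaling gave 59.9% for L5 over NG. The member median for L5 over NG was -0.05 under median, -0.08 under upper quartile, 0.00 under TPM and -1.07 under spike-in scaling. For HG over NG it was -0.16 under median, -0.16 under upper quartile, -0.12 under TPM and -0.71 under spike-in scaling, and for L5 over HG it changed sign, to -0.30, under spike-in scaling. The shortest listed isoform of a member is 354 nt, so leaving out isoforms under 200 nt removed none and could move no leading share.

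Members past the size rule were 0 for L5 over HG with a pseudocount of 5 (SOD2 -0.99). For L5 over NG they were 1 of 10 under median and 1 of 10 under TPM scaling (TXNRD1), beside 542 of 13552 and 765 of 14675 genes. Under spike-in scaling they were 7 of 10, beside 4555 of 13152 genes and a median of -0.87 for all genes. Separate intervals in place of the size rule gave 8, 9 and 8. The scalings of gene lists and chromosomes were added after seeing the data. The cause of the gap between spike-in and other scalings was not tested. No paired analysis was possible because each group has 1 library, and no replicate could be left out. Members held at least 1685 fragments each, and depth limits the isoforms listed near 0.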
